A study of Mus musculus with 8 samples.

Results

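The genes described here are 10 genes of the mouse cell cycle checkpoint: the CDK inhibitor genes Cdkn2a, Cdkn2b, Cdkn2c, Cdkn1a and Cdkn1b, the tumour suppressor genes Trp53 and Rb1, and Mdm2, Cdk4 and Cdk6, whose products act against them. They were chosen by name, and every region of the deposited list that lay in one of them or within 5000 bp of it was taken. This gave 114 of the 220894 regions on the list, at 10 of 21887 protein-coding genes. The study enriched genomic DNA of 8 mouse cell lines with a capture kit for mouse methylation sequencing and sequenced it after bisulfite treatment. Of the lines, 4 derived from brain tumours carrying mutant IDH and 2 from brain tumours labelled RAS glioma, with IDH wild type. The remaining 2 were immortalized astrocytes, also IDH wild type, and 1 of these expressed exogenous wild-type IDH1. All 8 lines came from N::TVA mice of mixed C57Bl/6, 129 and FVB/n background that carried Cdkn2a lox/lox. Mice behind the mutant tumour and astrocyte lines were Atrx lox/lox as well, an allele that the labels do not give for the wild-type tumour lines. Floxed Cdkn2a was thus shared by every line. Recombination of the floxed alleles, and which Cdkn2a exons they flank, are details not given in the sources used here for these lines.

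The list gave 1 position and 1 score for each region over the 8 lines together. The score is the authors' own value, with a meaning not given in the sources used here. No value of a single line, methylation level or expression value was analysed, so mutant and wild-type lines could not be compared, no value below has a replicate error, and the labelled cell types could not be checked against marker genes. Scores were used only to rank regions within the list. Because wider regions had higher scores, each score was expressed as a percentile among all regions on the list within 50 bp of the same width, where a percentile of 50 marks the middle of regions of that width. Positions are on mm10 and counted from 1.

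The p53 and Rb pathways stop cells from dividing. In the Rb pathway the INK4 proteins, encoded by Cdkn2a, Cdkn2b and Cdkn2c, bind CDK4 and CDK6 and keep them from phosphorylating RB, which holds back E2F target genes. In the p53 pathway ARF, a second protein of the Cdkn2a gene read in another frame, holds back MDM2, the ubiquitin ligase that degrades p53, and p53 turns on the CDK inhibitor gene Cdkn1a. Loss of CDKN2A or RB1 and gain of CDK4, CDK6 or MDM2 are recurrent in human glioma, and methylation of the CDKN2A and CDKN2B promoters is known from human tumours.

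The promoter sequences show where the bisulfite signal of these genes could arise, since CpG is the main site of DNA methylation in mammals. The RefSeq promoter table (GRCm38.p6, the assembly that mm10 names) lists 12 starts for 9 of the 10 genes, each with 300 bases that run from 250 bases before the start to 50 bases from it onwards. Rb1 was not matched to a listed start. Cdkn2a has 2 starts on the minus strand. The upper one (89294619, chromosome 4) is the start of the ARF transcript, whose first exon is known to lie farthest upstream, and the lower one (89282192) is the start of the INK4A transcript. These 2 windows are shown because the list treated them differently, beside the 2 starts of Cdkn1a, the start of Cdkn1b and that of Cdk6. All are written 5′ to 3′ on the strand of the gene, with every CpG in capitals.
Cdkn2a, ARF start, chr4:89294570-89294869, minus strand: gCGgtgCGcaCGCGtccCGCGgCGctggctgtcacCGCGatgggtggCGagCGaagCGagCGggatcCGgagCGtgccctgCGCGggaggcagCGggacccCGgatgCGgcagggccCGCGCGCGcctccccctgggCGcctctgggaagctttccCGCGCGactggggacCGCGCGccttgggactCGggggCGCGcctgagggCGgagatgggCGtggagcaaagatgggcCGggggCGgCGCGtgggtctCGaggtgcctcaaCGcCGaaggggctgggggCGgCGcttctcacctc
Cdkn2a, INK4A start, chr4:89282143-89282442, minus strand: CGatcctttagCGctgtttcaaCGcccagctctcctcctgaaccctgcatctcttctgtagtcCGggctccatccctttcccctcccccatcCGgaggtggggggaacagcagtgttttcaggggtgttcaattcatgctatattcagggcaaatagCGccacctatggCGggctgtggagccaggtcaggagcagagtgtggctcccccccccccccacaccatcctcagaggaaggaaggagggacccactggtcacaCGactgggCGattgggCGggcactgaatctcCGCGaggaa
Cdkn1a, first start, chr17:29090729-29091028, plus strand: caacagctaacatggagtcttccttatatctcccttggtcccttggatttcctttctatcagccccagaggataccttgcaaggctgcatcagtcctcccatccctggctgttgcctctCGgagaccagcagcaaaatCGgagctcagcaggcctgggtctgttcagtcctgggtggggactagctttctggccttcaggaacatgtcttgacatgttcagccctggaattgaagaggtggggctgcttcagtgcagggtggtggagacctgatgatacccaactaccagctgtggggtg
Cdkn1a, second start, chr17:29093519-29093818, plus strand: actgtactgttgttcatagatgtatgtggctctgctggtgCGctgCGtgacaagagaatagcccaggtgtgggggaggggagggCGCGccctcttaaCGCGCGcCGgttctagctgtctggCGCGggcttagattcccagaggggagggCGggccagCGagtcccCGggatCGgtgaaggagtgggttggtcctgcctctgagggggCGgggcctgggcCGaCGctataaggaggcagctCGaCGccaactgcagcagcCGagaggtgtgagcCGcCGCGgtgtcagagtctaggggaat
Cdkn1b, chr6:134920151-134920450, plus strand: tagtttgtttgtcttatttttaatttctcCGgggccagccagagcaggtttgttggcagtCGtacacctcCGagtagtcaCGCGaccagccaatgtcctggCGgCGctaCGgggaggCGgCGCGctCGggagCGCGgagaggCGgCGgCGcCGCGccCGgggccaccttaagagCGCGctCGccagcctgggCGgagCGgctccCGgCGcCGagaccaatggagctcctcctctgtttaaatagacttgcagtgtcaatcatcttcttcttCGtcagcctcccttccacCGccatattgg
Cdk6, chr5:3343643-3343942, plus strand: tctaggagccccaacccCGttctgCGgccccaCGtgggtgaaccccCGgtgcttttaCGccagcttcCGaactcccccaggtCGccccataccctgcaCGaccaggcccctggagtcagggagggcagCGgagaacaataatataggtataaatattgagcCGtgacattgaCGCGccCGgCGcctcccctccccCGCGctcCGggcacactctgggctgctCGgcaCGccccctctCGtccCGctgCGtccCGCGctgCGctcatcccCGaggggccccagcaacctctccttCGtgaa

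The ARF promoter held 45 CpG in 300 bases, the most of the 12 windows and more than most of the 21263 promoters of protein-coding genes (percentile 97.7, median 13 CpG), and none of the 45 lay inside a region. The INK4A promoter held 12 CpG, near the median of all promoters, of which 7 lay inside a region, and its start base was inside that region. Cdkn1a showed the same contrast between its starts: both CpG of the first window lay inside a region that covered all 300 bases, whereas the second window held 23 CpG and was touched by no region. The Cdkn1b window, with 30 CpG, was also untouched, and the nearest region began 210 bp from the start. At Cdk6, by contrast, all 27 CpG lay inside 1 region of 3510 bp. The windows of Trp53 (10 CpG) and of the second Cdkn2c start (8 CpG) were also covered whole. Between these extremes, 16 of 35 CpG were inside a region at Mdm2, 7 of 22 at Cdk4, 6 of 18 at Cdkn2b and 2 of 33 at the first Cdkn2c start.

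Over the 12 windows, 85 of 265 CpG (32.1%) lay inside a region, compared with 43.2% of the CpG in all promoter windows. These shares are not matched for CpG number: over all promoters the share was 36.5% with 20 or more CpG and 58.8% with fewer. The ARF window alone held 45 of the 265 CpG, and that of Cdk6 27 of the 85. All 5 member windows with under 20 CpG were touched by a region, compared with 49.0% of all such promoters, and 4 of the 7 with 20 or more were touched, compared with 75.0%. A dense promoter without any covered CpG was not particular to ARF: of 1081 promoters with 40 or more CpG, 69.8% had none inside a region. The split at 40 CpG was set after the values were seen. These are counts from 1 list over 8 lines and carry no test.

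**Figure D1:**
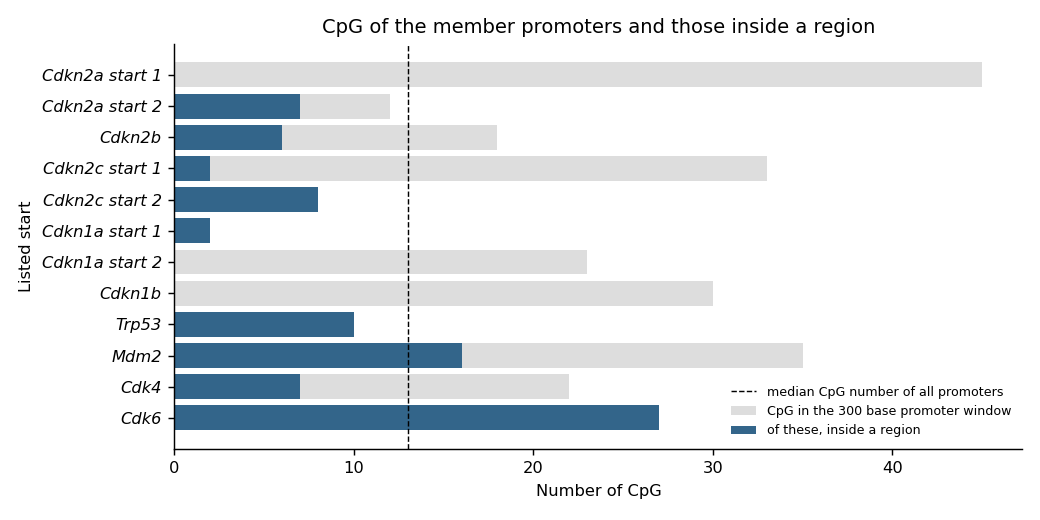
Number of CpG in the 300 base window of each of the 12 listed starts (grey bars, x axis) and the number of these inside a region of the list (blue bars), with the median of all promoters (13) as a dashed line. The ARF start of Cdkn2a (start 1), the second start of Cdkn1a and the start of Cdkn1b have no blue bar, although they hold 45, 23 and 30 CpG.

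Short motifs were searched on both strands of the 12 windows. The GC box GGGCGG was present in 8 of 12 windows and in 46.2% of all promoters, with 4 copies at the first Cdkn2c start and 3 each at the ARF start and Cdk4. The E-box CACGTG was present in 4 of 12 windows and in 7.84% of all promoters, with 4 copies at Cdk4 alone. An E2F type motif (TTTGGCGC, TTTCCCGC or TTTCGCGC) was present in 1 window, that of ARF, and in 2.41% of all promoters. The p53 half-site motif, by its consensus, was found in 3 of 12 windows and in 7.37% of all promoters, with 2 copies at the first start of Cdkn1a (73 and 51 bases before the start), 1 at Mdm2 and 1 at Trp53. The region over the first Cdkn1a start covered both copies. TATAAA was present in 2 of 12 windows and in 12.6% of all promoters. It lay 103 bases before the start at Cdk6 and 248 bases before it at Trp53. A match is a match of letters only, and the GC boxes overlap CpG by construction.

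With the wider window of 1000 bp to each side of a start, every one of the 9 members with a listed start had a region, compared with 74% of 17492 protein-coding genes. All 9 thus had a region near a start, whereas the scores differed. The median percentile at matched width was 23.2 for Cdkn2a, 28.6 for Cdkn1a, 29.4 for Cdkn2b, 35.5 for Cdkn1b, 39.5 for Trp53, 40.6 for Rb1 and 45.7 for Cdkn2c. It was 61.6 for Cdk6, 67.6 for Cdk4 and 80.6 for Mdm2. Among these 10 genes, the medians of the 7 inhibitor and suppressor genes lay under those of the 3 genes that act against them. Ranked within chromosomes the sets lay closer. The highest of the 7 was then Cdkn2c at 54.2, and the lowest of the 3 was Cdk4 at 58.0. With no width match they lay closer still, at 68.0 for Cdkn2c and 71.2 for Cdk6. With scores of at least 200, Rb1 was the highest of the 7 at 61.0, and Cdk4 the lowest of the 3 at 67.3. The gene median minus that of other regions within 500 kb was -1.94 at Cdkn2c and -0.88 at Cdk6, so the sets nearly met. At the level of regions the sets overlapped widely: 41 of the 64 regions of the 7 genes were under the 50th percentile (median 35.0), and 15 of the 50 regions of Mdm2, Cdk4 and Cdk6 (median 68.1), of which 35 were at Cdk6. Over all 16406 protein-coding genes with at least 3 regions the median was 48.3, with quartiles of 33.9 and 60.0, so Cdkn2a, Cdkn1a and Cdkn2b lay under the lower quartile and the 3 others over the upper one. This grouping by role was set with the values known. Some other genes of the same roles did not follow it, and some did. The cyclin D genes, whose products activate CDK4 and CDK6, had medians of 24.0 (Ccnd1), 36.5 (Ccnd2) and 41.9 (Ccnd3), within the range of the 7. The RB relatives Rbl1 (51.0) and Rbl2 (54.2) and the INK4 gene Cdkn2d (49.1) were above all 7. The p53 pathway gene Mdm4 (55.6) lay between the 7 and the 3. In contrast, the CDK inhibitor gene Cdkn1c (26.4) lay within the range of the 7, and Skp2 (79.7) and Cdk2 (73.6) within that of the 3.

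**Figure D2:**
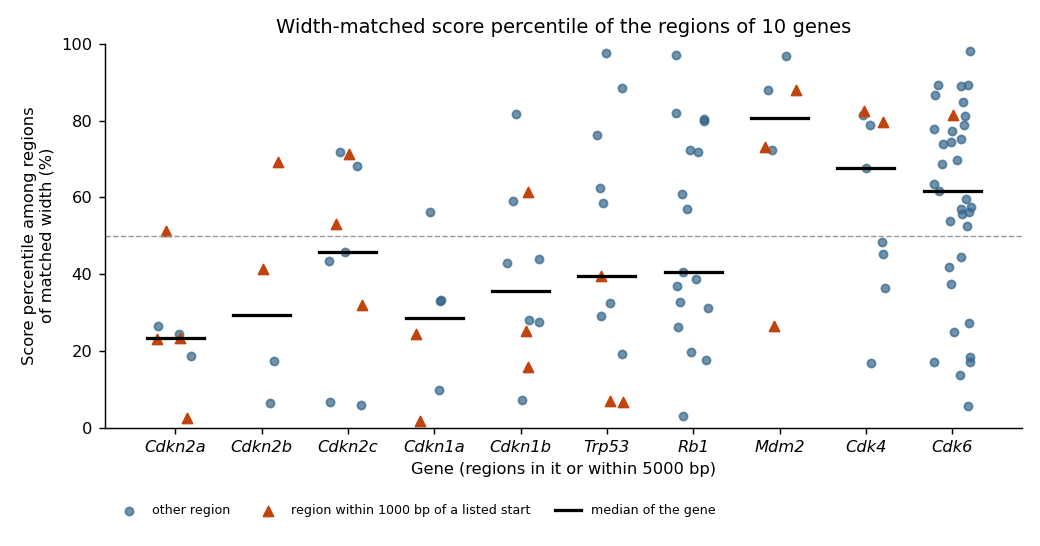
Each point is 1 region in a gene or within 5000 bp of it, at its score percentile among regions of matched width (y axis, %), with the median of each gene as a black bar and regions within 1000 bp of a listed start as triangles (Rb1 has no listed start). The medians of Mdm2, Cdk4 and Cdk6 (61.6 to 80.6) lie above those of the 7 other genes (23.2 to 45.7), while single regions overlap.

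The share of low extremes at the members was near that of the whole list. At or under the 10th percentile were 11 of the 114 member regions, or 9.65%, compared with 9.15% of all regions. At or over the 90th percentile were 4 member regions, or 3.51%, compared with 7.23%. Ranked within their own chromosomes there were 7, or 6.14%, compared with 7.25% of all regions. The 4 were a region inside Cdk6 (score 2296), one upstream of Trp53 inside Wrap53 (1161), one inside Rb1 (1378) and one inside Mdm2 (1097). The 23 regions within 1000 bp of a listed start had a median percentile of 39.5, compared with 57.5 for the 63 regions elsewhere in the genes. Most of these 63 were at Cdk6 and at Rb1, which has no listed start, so the contrast is also one between genes. All 24277 regions at listed starts of protein-coding genes had a median of 38.9, compared with 52.3 for all other regions. The low values at starts were thus shared with genes in general. When the 23 were ranked among such regions alone, their median percentile was 53.7.

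**Figure D3:**
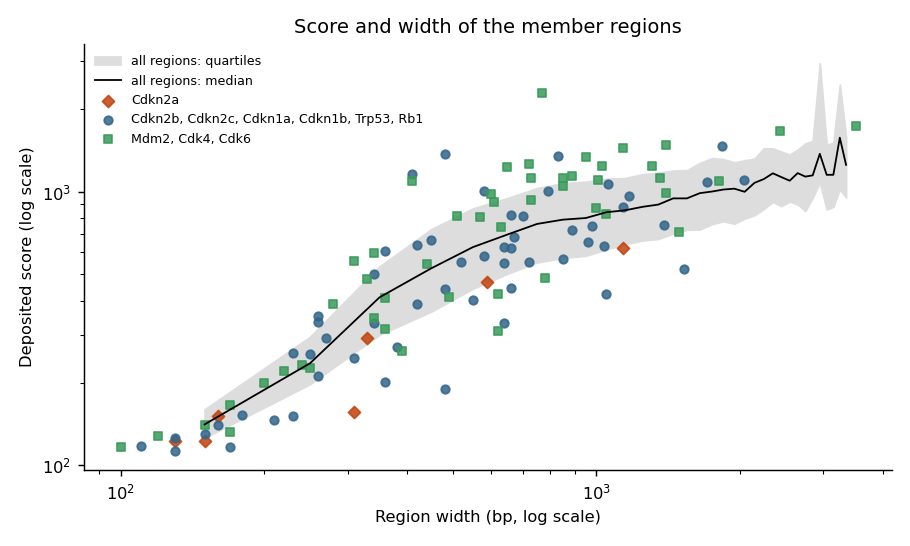
Deposited score (y axis, log scale) against region width (x axis, bp, log scale) for the 114 member regions, over the median and quartiles of all regions in steps of 100 bp. Of the 7 Cdkn2a regions (diamonds), 6 lie under the 50th percentile for their width, and the Mdm2, Cdk4 and Cdk6 regions (squares) are mostly over it.

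Cdkn2a (chromosome 4, 89274473 to 89294619) had 7 regions, with scores of 123 to 623, and 6 of them were under the 50th percentile. The region over the INK4A start (89281191 to 89282330) was the widest, at 1140 bp, and had the highest score, 623. For that width it was still low, at a percentile of 23.2 among 3859 regions. Just upstream of the INK4A start lay a region of 160 bp (89282551 to 89282710) with a score of 151 and a percentile of 51.2, the only one of the 7 over the 50th percentile. Between the 2 starts there was 1 further region away from either (89291271 to 89291600), with a score of 293 and a percentile of 26.5. Around the ARF start the regions were narrower than the one over the INK4A start, and their scores were lower than 623. A region of 130 bp inside the gene (89294341 to 89294470) scored 123, but its percentile, 23.1, was close to that of the INK4A start region. One upstream (89295541 to 89295850) scored 156, at a percentile of 2.41. The other 2 upstream regions scored 123 (percentile 18.8) and 466 (percentile 24.5). Within 1000 bp of the ARF start 209 bases were covered, compared with 1299 bases within 1000 bp of the INK4A start.

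Downstream of the INK4A start, Cdkn2a held no region other than the one over that start. The exons that both transcripts share are known to lie downstream of it, but exon boundaries were not used here, so the shared exons were not placed. Of the 7720 bp from that start to the lower gene end, the first 1002 bp were covered and the remaining 6718 bp were not. This empty stretch went on below the gene to the next region at 89264381 to 89264580, which scored 220 (percentile 74.7), so that 16610 bp held none. This gap was longer than most: 82.8% of the 220873 gaps on the list were shorter, with a median gap of 3550 bp. The longest stretch without a region inside Cdkn2a, 8560 bp between the 2 starts, was shorter than in most of the 2466 genes of similar length, whose median was 11111 bp. The targets of the capture kit were not used here, and how regions were called is not given. Sequence that was not captured, sequence captured but not listed, and sequence missing from the lines thus cannot be told apart.

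**Figure D4:**
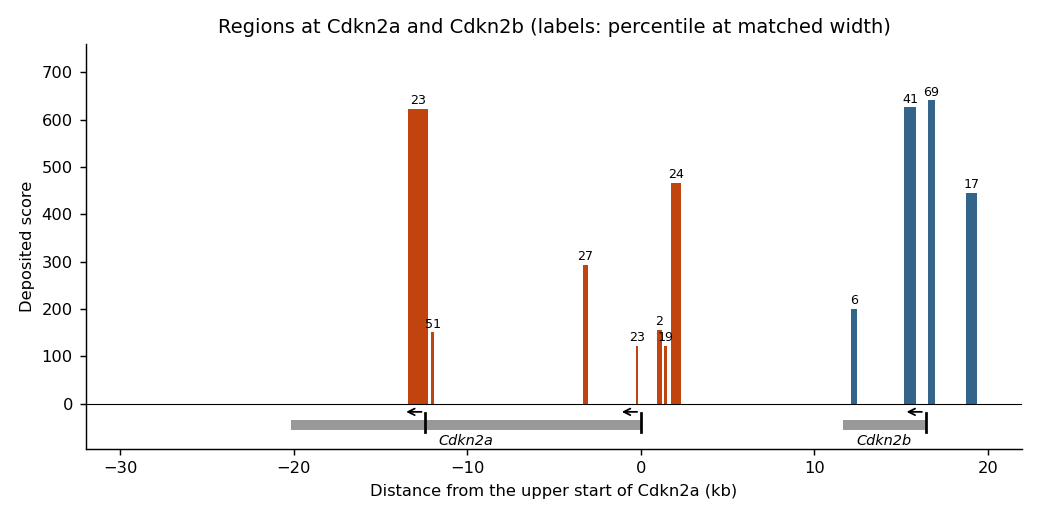
Deposited score (y axis) of each region at Cdkn2a (orange) and Cdkn2b (blue) against distance from the ARF start (x axis, kb), bars drawn to the width of the region and labelled with the percentile at matched width. Grey boxes are the genes, black ticks with arrows the listed starts and their direction; the lower 6718 bp of Cdkn2a hold no bar.

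Set beside 7417 protein-coding genes whose region number was alike, the median percentile of Cdkn2a was above that of 11.7%. Ranked by raw score it was above 0.276%, and its regions were also narrow (median 310 bp, compared with 460 bp on the whole list). By raw score 5 other members ranked far higher than by percentile, at 54.2% for Cdkn2b, 70.2% for Rb1, 72.4% for Cdkn1b, 77.9% for Trp53 and 80.8% for Cdkn2c. Against regions of chromosome 4 alone, a chromosome with a median percentile of 45.7, the median of Cdkn2a was 32.5. Cdkn2a was the lowest of the 10 members in 9 of the 10 ways of computing the percentile (the one above and 9 alternatives), and Cdkn1b was the lowest, at 30.4, within chromosomes. Cdkn2a scores of 123, 123, 151 and 156 lay near the lowest score on the list, 100. There small score differences move the percentile: at 130 bp, scores of 113, 123 and 126 had percentiles of 5.75, 23.1 and 28.0. With scores of at least 200, only the Cdkn2a regions scoring 293, 466 and 623 remained.

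The surroundings of Cdkn2a were not uniformly low. The other 85 regions within 500 kb had a median percentile of 53.7 (Cdkn2a minus surroundings, -30.4 points), and 8 of them were at or under the 10th percentile. The 85 include regions of the interferon gene cluster, whose scores are uncertain, so the difference of -30.4 points rests partly on them. In 100 kb bins going up from the ARF start, medians without Cdkn2a were 43.1, 36.6, 38.8, 42.5 and 83.7 (1 region). Going down they were 74.7, 56.6, 49.1, 60.5 and 67.1. Without the Cdkn2a regions, the 3 regions in the 100 kb below the ARF start had a median of 74.7, and the 10 in the 100 kb above it, Cdkn2b included, had a median of 43.1. With the Cdkn2a regions counted in, these medians were 46.5 over 7 regions and 24.5 over 13. Mtap, a purine salvage gene next to Cdkn2a on its lower side that is often lost with CDKN2A in human tumours, had 8 regions with a median of 46.8. Dmrta1, the next protein-coding gene of the table above Cdkn2b, had 4 regions with a median of 18.8. Medians were thus low at Cdkn2b and Dmrta1 above the gene and near the middle of the range at Mtap below it. The remaining 19 protein-coding genes within 500 kb are type I interferon genes or lie among them.

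**Figure D5:**
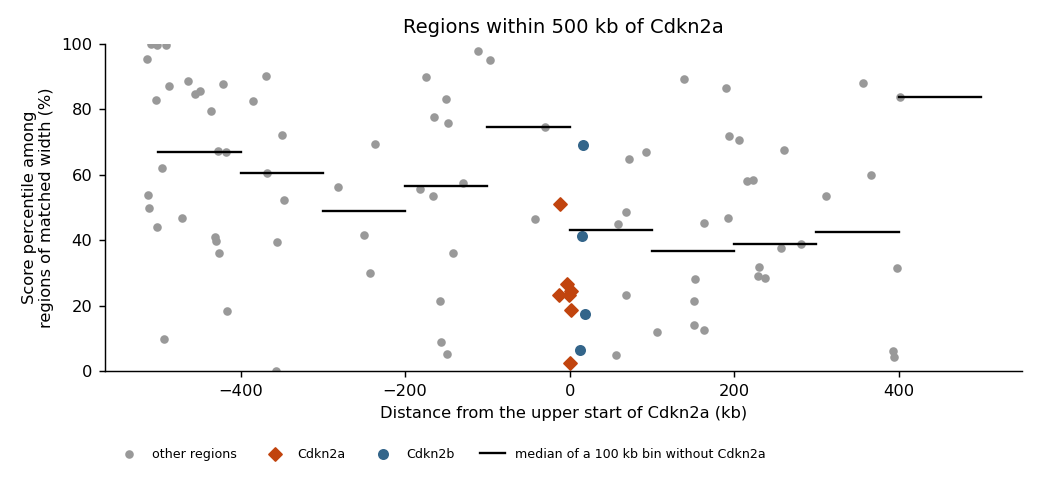
Score percentile among regions of matched width (y axis, %) for each region within 500 kb of Cdkn2a against distance from its ARF start (x axis, kb), with the median of each 100 kb bin, Cdkn2a left out, as a black line. The bin just above the start is at 43.1 (10 regions) and the bin just below it at 74.7 (3 regions), and bins hold 1 to 16 regions.

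The neighbouring INK4 gene Cdkn2b, which encodes p15, had 4 regions (chromosome 4, gene at 89306289 to 89311032). The region just upstream of its start (89311151 to 89311570) scored 641, a percentile of 69.2, and the one just inside the gene (89309821 to 89310460) scored 626, a percentile of 41.3. Its other 2 regions, at the lower end of the gene and farther upstream, scored 201 (percentile 6.30) and 446 (percentile 17.4). Among regions at listed starts alone, the percentiles of the regions scoring 641 and 626 were 81.1 and 54.8. The start of Cdkn2b thus had scores in the middle of the range or above it, and its low median came from the 2 regions away from the start. With flanks of 1000 bp in place of 5000 bp, its median was 41.3 and its rank among genes moved from 20.7% to 43.7%.

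Cdkn2c, which encodes p18, lies farther along chromosome 4 (109660876 to 109666756) and was the highest of the inhibitor genes, with 9 regions and a median percentile of 45.7. Its first start was flanked by regions scoring 390 (percentile 31.8) and 1068 (percentile 71.4), and its second start lay inside a region of 1140 bp that scored 882 (percentile 53.2). That region has the same width as the one over the INK4A start, which scored 623. The 90 other regions within 500 kb of Cdkn2c had a median of 47.6, close to that of the gene.

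Cdkn1a, which encodes p21, the main cell cycle target of p53, held the lowest percentile of all 114 regions. It had 6 regions, all touching the gene, with scores of 146 to 566. The region of 480 bp that begins 322 bp after the second start (chromosome 17, 29094091 to 29094570) scored 190, a percentile of 1.67 among regions of its width. A region of equal width farther into the gene (29095541 to 29096020) scored 442, a percentile of 32.9. The region over the first start (29090551 to 29091400) scored 566, a percentile of 24.3. Only the last region of the gene, with a score of 255, was over the 50th percentile, at 56.2. The median of 28.6 was above that of 18.3% of genes alike in region number, and 298 other regions within 500 kb had a median of 45.8.

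Cdkn1b, which encodes p27, was densely covered: its 10 regions took up 58.1% of the gene and its flanks, compared with a median of 8.84% over protein-coding genes. That median is over genes of every length and is not matched to the 5125 bp of Cdkn1b. Other short members had 57.6% (Cdk4, 3754 bp), 33.4% (Cdkn2c, 5881 bp) and 14.1% (Cdkn2b, 4744 bp). Of the 3 regions within 1000 bp of its start, the 2 nearest scored 271 upstream (percentile 15.9) and 212 inside the gene (percentile 25.1), and the third, of 2040 bp, scored 1106 (percentile 61.3). Among regions at listed starts alone, the percentiles of these 3 were 28.0, 42.9 and 61.4. Farther into the gene a region of 580 bp scored 1005 (percentile 81.7), and the last one in the gene scored 725 (percentile 42.9). Downstream, a region of 1530 bp scored 520 (percentile 7.11). The rank of Cdkn1b among genes depended on the flanks, at 27.8% with 5000 bp and 45.7% with 1000 bp.

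Trp53, which encodes p53 (chromosome 11, gene at 69580348 to 69591873), had 11 regions with percentiles from 6.72 to 97.6. Its start lay inside a region of 660 bp that scored 625 (percentile 39.5). The neighbouring region on either side was low for its width, with 332 upstream (69578971 to 69579610, percentile 6.72) and 423 in the gene (69581251 to 69582300, percentile 7.01). The 8 regions farther away spread over most of the range. The highest were 1161 upstream (69576961 to 69577370, percentile 97.6) and 1347 downstream of the gene (percentile 88.5), and the lowest were 401 upstream (percentile 19.3), 130 (percentile 29.1) and 755 (percentile 32.4), both in the gene. All 4 regions at or upstream of the start also touch Wrap53, a gene that runs from the same promoter in the opposite direction, so their scores cannot be assigned to one gene. The longest stretch of Trp53 without a region was 2153 bp, and 1.98% of 2118 genes of similar length had a shorter one.

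Mdm2, the ubiquitin ligase that targets p53 and is itself a p53 target gene, had the highest median of the members, 80.6, above that of 96.8% of 8113 genes alike in region number. Of its 6 regions 5 were over the 70th percentile. The region just inside the gene from the start (chromosome 10, 117708691 to 117710090) scored 1482, a percentile of 87.9. The p53-responsive second promoter of Mdm2 is known to lie in its first intron, which was not placed here. Farther in, regions scored 1263 (percentile 88.1) and 1097 (percentile 96.8). The exception was the region of 360 bp that begins just upstream of the start (117710821 to 117711180), with a score of 316 and a percentile of 26.5. That region held the 16 covered CpG of the promoter window. Scores on chromosome 10 were higher than elsewhere (median percentile 56.8), and within that chromosome the median of Mdm2 was 74.8.

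Rb1, which encodes the retinoblastoma protein RB, had 17 regions over 133094 bp (chromosome 14, 73192858 to 73325951), with a median percentile of 40.6. The region nearest to the upper gene end inside the gene (73323881 to 73325050) scored 963 (percentile 61.0), and the nearest outside it (73326171 to 73326890) scored 555 (percentile 26.3). The 2 highest percentiles inside the gene were 97.2, for a region of 480 bp that scored 1378 (73303081 to 73303560), and 82.0, for a region of 1840 bp that scored 1463 (73237631 to 73239470). The latter also touches Lpar6, a receptor gene that lies within an intron of Rb1, so its score cannot be given to Rb1 alone. The lowest was a region of 170 bp with a score of 117 (percentile 3.13). The longest stretch without a region was 34160 bp, close to the median of 33705 bp over 906 genes of similar length.

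Cdk4 and Cdk6, the kinases that the INK4 proteins inhibit, had high scores at their starts. At Cdk4 (chromosome 10, 127063535 to 127067288) the regions on either side of the start had the same score, 1243, at percentiles of 82.6 upstream and 79.6 in the gene. Downstream a region of 2430 bp scored 1666 (percentile 81.4 among 207 regions of like width), and it touches Tspan31, as do 2 of its neighbours. The 9 regions covered 57.6% of the gene and its flanks, and the median of 67.6 was 26.7 points over that of the 254 other regions within 500 kb (40.9). At Cdk6 (chromosome 5, 3341004 to 3531008) the start lay inside a region of 3510 bp that scored 1745 (percentile 81.6), the widest of all member regions, and only 19 regions on the list were of like width. Of its 35 regions the highest score was 2296, in the gene, its centre 110 kb from the start (3453681 to 3454450, percentile 98.2), and the lowest percentile was 5.66 (score 310). A stretch of 54090 bp inside Cdk6 held no region. The median of Cdk6 (61.6) was close to that of the 76 other regions within 500 kb (62.5), unlike those of Mdm2 and Cdk4.

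At the 5000 bp limit that chose the regions, the one farthest out but inside it was 4775 bp from Cdk4, with a score of 485 (percentile 16.9), and the nearest outside it was 5795 bp from Mdm2, with a score of 446 (percentile 43.2).

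Other genes of the pathways covered a wider range than the members, over 28 and 29 genes compared with 10. A larger number of genes widens a range by itself, and the highest median of the Rb list (79.7) was under that of the members (80.6). Of 28 further p53 pathway genes, 21 had a listed start and all 21 had a region within 1000 bp of it. Over all protein-coding genes with a listed start the share was 74%. Over the 234 regions of the p53 list the median percentile was 48.9. At or under the 10th percentile were 22 regions (9.40%), near the 9.15% of all regions. The highest gene medians were 93.5 at Fas, a death receptor, 74.7 at Sesn1, a stress-induced inhibitor of mTORC1 signalling, and 73.6 at Ppm1d, a phosphatase that ends p53 signalling. The lowest were 11.6 at Sfn, which encodes the 14-3-3 sigma protein, 12.4 at Trp73, which encodes the p53 relative p73, and 32.4 at Aen, an apoptosis nuclease. Fas and Sfn rest on 3 and 5 regions, and Trp73 on 17.

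Of 29 further Rb pathway genes, 21 had a listed start and all 21 had a region within 1000 bp of it, compared with the same 74%. Over the 251 regions of the Rb list the median percentile was 47.8. At or under the 10th percentile were 30 regions (12.0%), compared with 9.15% of all regions. The highest gene medians were 79.7 at Skp2, a ubiquitin ligase subunit that degrades p27, 73.6 at Cdk2, and 72.3 at Cks1b, a partner of Skp2. The lowest were 8.99 at Ccna1, which encodes the germline cyclin A1 (3 regions), 9.84 at E2f2, and 24.0 at Ccnd1, which encodes cyclin D1. At E2f2, 9 of 17 regions were at or under the 10th percentile. E2f2, Sfn and Trp73 lie on chromosome 4, as do the INK4 members. The other regions within 500 kb of them were low too, with medians of 38.2, 35.1 and 29.6, and each gene was lower than its surroundings. The part of the chromosome in these values was not tested. Within chromosome 4 the medians were 12.3 at E2f2, 17.4 at Sfn and 18.1 at Trp73, so these genes remained under Cdkn2a (32.5).

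Atrx, a chromatin remodeller gene on chromosome X that was floxed in the mice behind 6 of the 8 lines, had higher values than Cdkn2a. It had 13 regions with a median percentile of 63.0. The other 49 regions within 500 kb had a median of 66.7. The gene thus differed from its surroundings by -3.72 points, compared with -30.4 points for Cdkn2a, whose surroundings include the interferon gene cluster. A large difference was not particular to Cdkn2a. Among the other members and the list genes with the highest and lowest medians, differences ran from -42.1 points at Ccna1 to 33.9 at Cks1b. E2f2 had -28.3 points and Cdkn2b -20.5. Cdkn2a was floxed in the mice of all lines, and the list holds no value per line with which this could be separated.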

How the data were processed

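Genomic DNA of 8 lines was captured with an Agilent SureSelect XT kit made for mouse methylation sequencing and sequenced after bisulfite conversion, per the labels' protocols. Novoalign 3.7.1, Picard and the build mm10 are named, per the submitters' processing notes. Callers of regions and of methylation are tools not given in the sources used here. For the series the authors deposited 1 list of regions with 1 score each, a whole number of at least 100, and the track name includes min10 and targets, per the file headers. With no counts per line the depth is unknown, so no interval, test or group comparison was made.

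Regions sharing at least 1 bp with a gene and 5000 bp to each side were taken. A percentile is the share of regions within 50 bp of the width with a lower score, plus the tied share divided equally between lower and higher. Genes with at least 3 regions were ranked against protein-coding genes within 2 of their region number. Gene positions and promoters are RefSeq GRCm38.p6, and all 68 listed gene symbols matched. A further item of the genotypes is not reported here. Exons were not used here. The members and lists were chosen with earlier results of these data known. Named list genes are the 3 highest and the 3 lowest medians among genes with at least 3 regions. The percentile code was tested on simulated data. Python 3.11.15, pandas 2.3.3 and numpy 2.4.6 were used. Alternatives changed the width band, the reference regions, the flanks, the start window and the lowest score.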

Additional observations from a re-analysis of the deposited data

How the results depend on the processing

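The median percentile over all member regions was 51.8. It was 49.4 with widths within 20 bp, 49.5 with widths within 10%, 50.8 within the same chromosome, 50.5 with flanks of 10000 bp, 55.3 as a mean weighted by width, 55.5 with scores of at least 200, 56.1 with flanks of 1000 bp and 58.8 with no width match. For regions at a listed start it was 39.5, and 53.7 among regions at listed starts, an alternative chosen after seeing the data, as was the 300 base promoter window. The number of regions at or over the 90th percentile was 4, and 7 within the same chromosome. The median gene rank of the members was 31.6%, 44.9% with flanks of 1000 bp and 75.2% by raw score. The cause was not tested, apart from the width that raw scores carry. The count of genes with a region at a start was 9 of 9 with windows of 500 and 2000 bp, with region midpoints and with scores of at least 200, and 8 of 9 in the 300 base window, where Cdkn1b had none. No paired analysis was possible because the list holds 1 value for the 8 lines together, and for the same reason no line could be left out.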

Other observations

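On the far side of Mtap, more than 400 kb below the ARF start of Cdkn2a, the interferon gene cluster held regions over a wide range of percentiles. Gm13289 had 4 regions with a median percentile of 97.1, and the highest score there, 8472, was shared by the windows of Ifnz, Gm13272, Gm13276, Gm13277 and Gm13278, which lie within 5000 bp of each other's regions. Ifna5, Ifna4 and Ifna1, type I interferon genes, had medians of 86.7, 85.2 and 85.5, and Ifna6, Ifna11 and Ifne had medians of 67.7, 46.8 and 42.5, each over 1 or 2 regions. Ifna7 had no region. Whether reads of these closely related genes match several copies was not tested, so their scores are uncertain.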
